A study of Mus musculus with 14 samples.

Results

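The regions described here are the accessible chromatin regions around 8 genes that set nutrient uptake and growth in T cells, namely Myc, Hif1a, Slc2a1, Slc2a3, Slc7a5, Slc3a2, Slc1a5 and Tfrc. A region of the deposited count table belonged to a gene if the gene's transcription start was the nearest protein-coding start to the region's midpoint, or if the midpoint lay within the gene body, by the RefSeq annotation of GRCm38. Of 67254 regions, 127 met this rule, with 68 at Myc, 22 at Hif1a, 10 at Slc2a3, 9 at Slc2a1, 6 at Slc3a2, 5 at Slc7a5, 4 at Tfrc and 3 at Slc1a5. A nearest start is a position and does not show which gene a region acts on.

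The libraries are bulk ATAC-seq, in which a transposase inserts adapters where chromatin is open, and the count of a region stands for its accessibility. CD45.2+ BM from control Foxp3Cre Atg14+/fl mice, or from Foxp3Cre Atg14fl/fl mice, was mixed 1:1 with CD45.1+ WT BM and transferred into sublethally irradiated Rag1-/- hosts, which lack mature T and B cells of their own, and the hosts were rested for 6–8 weeks. Splenic CD4+Foxp3-YFP+ Tregs that carried CD45.2 were sorted, by surface markers that include CD44, as CD44- cTregs (central Tregs) or CD44+ eTregs (effector Tregs). For each state there were 3 control and 4 Atg14-deficient libraries. Foxp3 drives the Cre, which directs the deletion to Treg-lineage cells, and every group carries it, while the controls have a single floxed allele. Atg14 is a subunit of the Vps34 lipid kinase complex that starts autophagy.

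Total counts ranged from 2242983 to 5548189 per library, and the 127 regions took between 0.185% and 0.205% of them. The values below are CPM, the counts of a region scaled to the library's total. No region overlapped the promoter of a B cell marker (0 of 4 genes) or of a myeloid marker (0 of 4), and none overlapped that of Foxp3 or Cd4, whereas the promoters of Ikzf2, Ctla4, Il2ra and Cd3e had regions. The sums over this Treg marker list overlapped neither between genotypes nor between states, at 125 to 132 CPM in control and 137 to 167 in Atg14-deficient cTregs, and at 93.7 to 97.4 in control and 118 to 126 in Atg14-deficient eTregs. The eTreg marker promoters Icos, Tigit and Klrg1 (3 of 4 genes, none at Il1rl1) summed to between 96.7 and 129 CPM in cTregs and to between 82.8 and 135 in eTregs, which overlapped. Against its label, Icos was lower in eTregs without overlap in either genotype, at 29.3 to 36.1 CPM in control cTregs and 16.2 to 22.1 in control eTregs, and at 32.8 to 48.7 and 19.2 to 25.2 in Atg14-deficient cells, where it passed (log2 fold change -0.75, adjusted p = 0.00895 by edgeR), while Tigit and Klrg1 did not pass. Of the cTreg markers, Ccr7 and Tcf7 were lower in eTregs and passed, with log2 fold changes of -1.44 and -1.96 in controls and -0.96 and -1.72 in Atg14-deficient cells, while Lef1 had -0.22 and 0.06 and did not pass. The CD8 T and NK cell list had regions at the promoters of Cd8b1 and Klrb1c (2 of 4 genes), with summed CPM from 13.5 to 22.2 in cTregs and from 4.37 to 12.0 in eTregs, while Cd8a and Ncr1 had none. The difference was at Cd8b1 (log2 fold changes of -1.92 in controls and -1.73 in Atg14-deficient cells), whereas Klrb1c had 0.89 and 1.30 and did not pass. The Treg sums thus moved with genotype and with state, and the accessibility at Cd8b1 with state, and their part in the results was not tested. The promoter region of Atg14 had between 16.8 and 35.2 CPM in all libraries, and accessibility there does not measure whether the floxed part was deleted. Sorted bulk libraries cannot tell a change within each cell from a change in the mix of cells.

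Myc is a transcription factor that drives the growth and metabolic programs of activated lymphocytes, and its enhancers are scattered over a large gene-poor region that also holds the lncRNA gene Pvt1. Hif1a encodes the oxygen-labile subunit of hypoxia-inducible factor, which promotes glycolysis. Slc2a1 (GLUT1) and Slc2a3 (GLUT3) import glucose, Slc7a5 (LAT1) and its heavy chain Slc3a2 (CD98) form the exchanger for large neutral amino acids, Slc1a5 imports glutamine and other neutral amino acids, and Tfrc (CD71) takes up transferrin-bound iron. T cells raise several of these transporters on activation, and eTregs are the activated counterpart of resting cTregs.

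The sequences shown first are from regions that passed the adjusted threshold between states in controls. At each locus with such a region they are the central 300 bases of the one with the largest difference among those that passed. All are from the plus strand of GRCm38 (RefSeq). The Myc sequence is chr15:62698538-62698837, an intergenic stretch 713.3 kb downstream of the Myc start. The Hif1a sequence is chr12:73755683-73755982, within an intron of Prkch (protein kinase C eta) and 145.5 kb upstream of the nearest Hif1a start. The Slc2a1 sequence is chr4:119125814-119126113, within an intron of Slc2a1. Capitals mark exact matches, on either strand, to the motifs searched, which here were CTTTGA (TCF/LEF) in the Myc and Slc2a1 sequences and TGANTCA (AP-1) in the Hif1a sequence.
Myc: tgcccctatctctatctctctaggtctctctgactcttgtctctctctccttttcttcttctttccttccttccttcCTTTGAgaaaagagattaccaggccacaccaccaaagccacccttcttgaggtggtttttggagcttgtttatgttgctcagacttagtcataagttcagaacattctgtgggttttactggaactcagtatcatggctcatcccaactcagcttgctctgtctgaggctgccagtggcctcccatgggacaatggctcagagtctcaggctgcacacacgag
Hif1a: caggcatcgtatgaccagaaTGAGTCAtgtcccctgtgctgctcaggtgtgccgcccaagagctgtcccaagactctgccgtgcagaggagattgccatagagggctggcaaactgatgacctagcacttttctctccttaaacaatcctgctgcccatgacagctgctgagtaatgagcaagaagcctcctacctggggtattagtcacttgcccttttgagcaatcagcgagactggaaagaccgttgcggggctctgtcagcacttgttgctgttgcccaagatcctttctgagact
Slc2a1: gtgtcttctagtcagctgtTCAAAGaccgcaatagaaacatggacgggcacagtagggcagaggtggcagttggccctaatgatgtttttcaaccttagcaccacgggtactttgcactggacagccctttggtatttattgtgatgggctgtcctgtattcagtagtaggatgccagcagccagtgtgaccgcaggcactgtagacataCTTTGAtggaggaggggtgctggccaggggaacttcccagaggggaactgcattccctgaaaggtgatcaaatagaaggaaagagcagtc

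In the central 200 bases of each region, CTTTGA was found in 5 of the 11 member regions that passed the adjusted threshold between states in either genotype (45.5%), in 24 of the 117 tested member regions (20.5%) and in 14.8% of all tested regions. By direction it was in 3 of the 7 that were higher in eTregs and in 2 of the 4 that were lower, against 12.3% and 25.5% of all regions that passed in those directions. TGANTCA was found in 1 of the 11 (1 of 7 higher and 0 of 4 lower, against 23.1% and 9.14% of all that passed), in 30 of the 117 (25.6%) and in 11.5% of all tested regions, and the match in the Hif1a sequence above lies outside this central window. CACGTG (the E-box that Myc and its partners can bind) was found in 9 of the 117 member regions (7.69%, against 4.94% of all), and ACGTG, the hypoxia response core that every CACGTG also contains, in 17 (14.5%, against 14.3%). TGTGGT (RUNX) was found in 25 (21.4%, against 22.7%) and CCGGAA (ETS) in 2 (1.71%, against 8.31%). Promoters made up 11.1% of the tested member regions and 21.1% of all tested regions. Outside promoters the shares were 28.8% against 13.6% for TGANTCA, 23.1% against 17.0% for CTTTGA and 1.92% against 5.27% for CCGGAA. These counts describe letters in a window and not bound sites.

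The promoters of all 8 genes had a region, and none passed the adjusted threshold in any comparison. Each gene had a region overlapping the stretch from 1000 bp before to 100 bp after an annotated start, and the one of highest mean count was taken where there were several. Averaged over libraries these regions had 92.7 CPM at Slc2a1, 76.4 at Hif1a, 72.2 at Slc7a5, 51.8 at Tfrc, 39.2 at Slc3a2, 36.2 at Slc2a3, 29.7 at Slc1a5 and 16.3 at Myc. Wider regions collect more reads. Per kb of region the means were 115 CPM at Hif1a, 89.6 at Slc2a1, 81.5 at Slc7a5, 75.2 at Slc1a5, 70.5 at Tfrc, 51.5 at Slc3a2, 46.4 at Slc2a3 and 44.2 at Myc. The Myc promoter thus had the lowest level on either scale, and 36.1% of the 12968 tested promoter regions had a lower mean CPM than it.

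**Figure D1:**
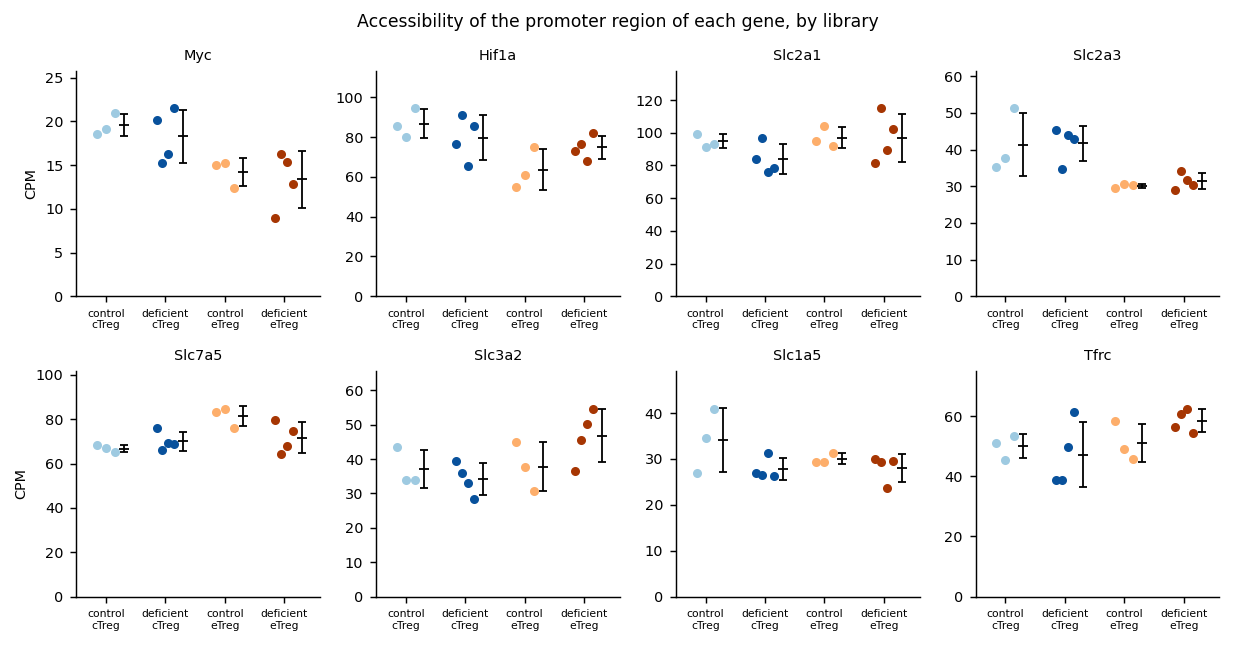
CPM (y axis, from 0) of the promoter region of each gene in each library (points), by group (x axis), with the group mean and SD (black). None of the 8 passed the adjusted threshold in any comparison. At Hif1a the control eTreg libraries lie between 55.0 and 75.2 CPM and the control cTreg libraries between 79.9 and 94.5.

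At the Myc promoter (chr15:61984899-61985266, 0.3 kb upstream of the start) the control cTreg libraries had 18.6, 19.1 and 21.0 CPM, the control eTreg libraries 15.0, 15.2 and 12.4, the Atg14-deficient cTreg libraries 20.2, 15.2, 16.3 and 21.5, and the Atg14-deficient eTreg libraries 8.99, 16.3, 15.4 and 12.8. The control groups did not overlap, but the log2 fold change of -0.46 ± 0.26 (SE) between states did not pass the threshold (adjusted p = 0.331, edgeR's quasi-likelihood test), nor did the same value of -0.46 ± 0.23 in Atg14-deficient cells (adjusted p = 0.21). Between genotypes the difference was -0.09 ± 0.25 in eTregs and -0.09 ± 0.24 in cTregs. A second region lay within the 5′ UTR (chr15:61985409-61985683), between 9.2 and 21.4 CPM in all libraries.

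Hif1a has 4 annotated starts, and they differed in level. The region at the outermost start (chr12:73901210-73901441) had at most 5.02 CPM in any library, whereas the region at an internal start (chr12:73907503-73908166) had between 55.0 and 94.5. At that internal promoter the control cTregs had 86.7 ± 7.34 CPM (SD, n = 3) and the control eTregs 63.7 ± 10.4 (SD, n = 3), without overlap. The log2 fold change was -0.43 ± 0.14 (SE; adjusted p = 0.0751), and without control eTreg replicate 3 it was -0.58 and passed (adjusted p = 0.0409). In Atg14-deficient cells the corresponding values were 79.8 ± 11.1 and 74.8 ± 5.98 CPM (SD, n = 4 each), a log2 fold change of -0.09 ± 0.13 (SE). The difference between these effects was 0.34 ± 0.19 and did not pass (adjusted p = 1.0 by edgeR).

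Neither glucose transporter promoter passed between genotypes. At Slc2a1 (chr4:119108443-119109477) all libraries lay between 76.0 and 115 CPM, and at Slc2a3 (chr6:122742173-122742953) between 29.1 and 51.3. The Slc2a3 promoter had 41.3 ± 8.68 CPM in control cTregs and 30.2 ± 0.556 in control eTregs (SD, n = 3 each), and 41.7 ± 4.82 and 31.4 ± 2.25 in Atg14-deficient cells (SD, n = 4 each). All eTreg libraries lay below all cTreg libraries, the highest at 34.3 and the lowest at 34.6 CPM, and the log2 fold changes of -0.44 ± 0.18 and -0.42 ± 0.16 (SE) missed the threshold (adjusted p = 0.16 and 0.0858, edgeR). The most accessible of the 127 regions was another Slc2a3 region (chr6:122810324-122811635), 8.6 kb upstream of a start that RefSeq lists only as a prediction, with 257 to 356 CPM in all libraries and no comparison past the threshold.

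The promoters of Slc7a5 (chr8:121907344-121908229), Slc1a5 (chr7:16781074-16781468) and Tfrc (chr16:32608656-32609390) had log2 fold changes between -0.28 and 0.30 in both state and both genotype comparisons, with SEs from 0.11 to 0.19, and none passed. The Slc3a2 promoter (chr19:8722816-8723576) had 46.8 ± 7.77 CPM in Atg14-deficient eTregs and 34.2 ± 4.72 in Atg14-deficient cTregs (SD, n = 4 each), a log2 fold change of 0.46 ± 0.17 (SE; adjusted p = 0.0724, edgeR), which was 0.56 and passed without Atg14-deficient eTreg replicate 1 (adjusted p = 0.0482). In controls the values were 37.8 ± 7.12 and 37.1 ± 5.53 CPM (SD, n = 3 each).

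For each promoter, the promoter region of another gene whose log2 CPM followed it most closely over the 14 libraries was, among 12968, that of Nfkb1 for Myc (Pearson r = 0.895), Dusp2 for Hif1a (0.957), Ldlrad3 for Slc2a1 (0.837), Mllt10 for Slc2a3 (0.89), Pogk for Slc7a5 (0.869), Pop7 for Slc3a2 (0.856), Ggact for Slc1a5 (0.809) and Trmt61a for Tfrc (0.892). These are the highest of many correlations over libraries that share depth and the share of counts at promoters, and are given as a description.

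The first comparison asks how accessibility at these loci differed between eTregs and cTregs. It was higher in eTregs at distal regions of Myc and Hif1a and in an intron of Slc2a1 and of Slc7a5. It was lower in eTregs at 4 distal Myc regions, while no promoter passed without the replicate number as a block. A region passed the adjusted threshold with a Benjamini-Hochberg adjusted p below 0.05 over all 61366 tested regions and a log2 fold change beyond 0.5, and 117 of the 127 member regions had enough counts to be tested. In controls 5 of 117 passed (4.27%, against 5.3% of all tested regions), 4 higher in eTregs and 1 lower (2.01% and 3.29% of all). In Atg14-deficient cells 10 of 117 passed (8.55%, against 9.81% of all), 6 higher and 4 lower (4.41% and 5.4% of all). Groups did not overlap in 31 of 117 in controls (26.5%, against 26.0% of all) and in 13 of 117 in Atg14-deficient cells (11.1%, against 15.5% of all). These shares lie near or below those of all tested regions and are no result about the loci. The median log2 fold change of the member regions was 0.03 in controls and -0.01 in Atg14-deficient cells, against -0.01 and 0.02 over all tested regions. With the replicate number as a block, 16 of 117 passed in Atg14-deficient cells, against 15.5% of all tested regions. In controls 15 of 117 passed with the block, against 6367 of 61366. Single libraries moved the counts without the block. In controls 1 passed without cTreg replicate 1 or eTreg replicate 2, 2 without eTreg replicate 3, 3 without cTreg replicate 3 or eTreg replicate 1 and 8 without cTreg replicate 2, and in Atg14-deficient cells 3 passed without cTreg replicate 3, 5 without eTreg replicate 4 and 6 without cTreg replicate 1.

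The comparisons in controls and in Atg14-deficient cells share no library. Of the 11 member regions that passed in either, 4 passed in both in the same direction, which is 80.0% of the control calls and 40.0% of the Atg14-deficient calls, against 62.3% and 33.6% of the calls over all tested regions. As a share of the regions tested this is 3.42%, against 3.3%. All 11 had the same sign in both genotypes, as did 97.1% of all regions that passed in either. None of the 13 member regions at annotated promoters was among them (9.29% of all tested promoter regions passed in either), and 9 of the 60 tested regions more than 50 kb from a start of their gene were (15.0%, against 15.1% of all regions more than 50 kb from the nearest coding start).

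**Figure D2:**
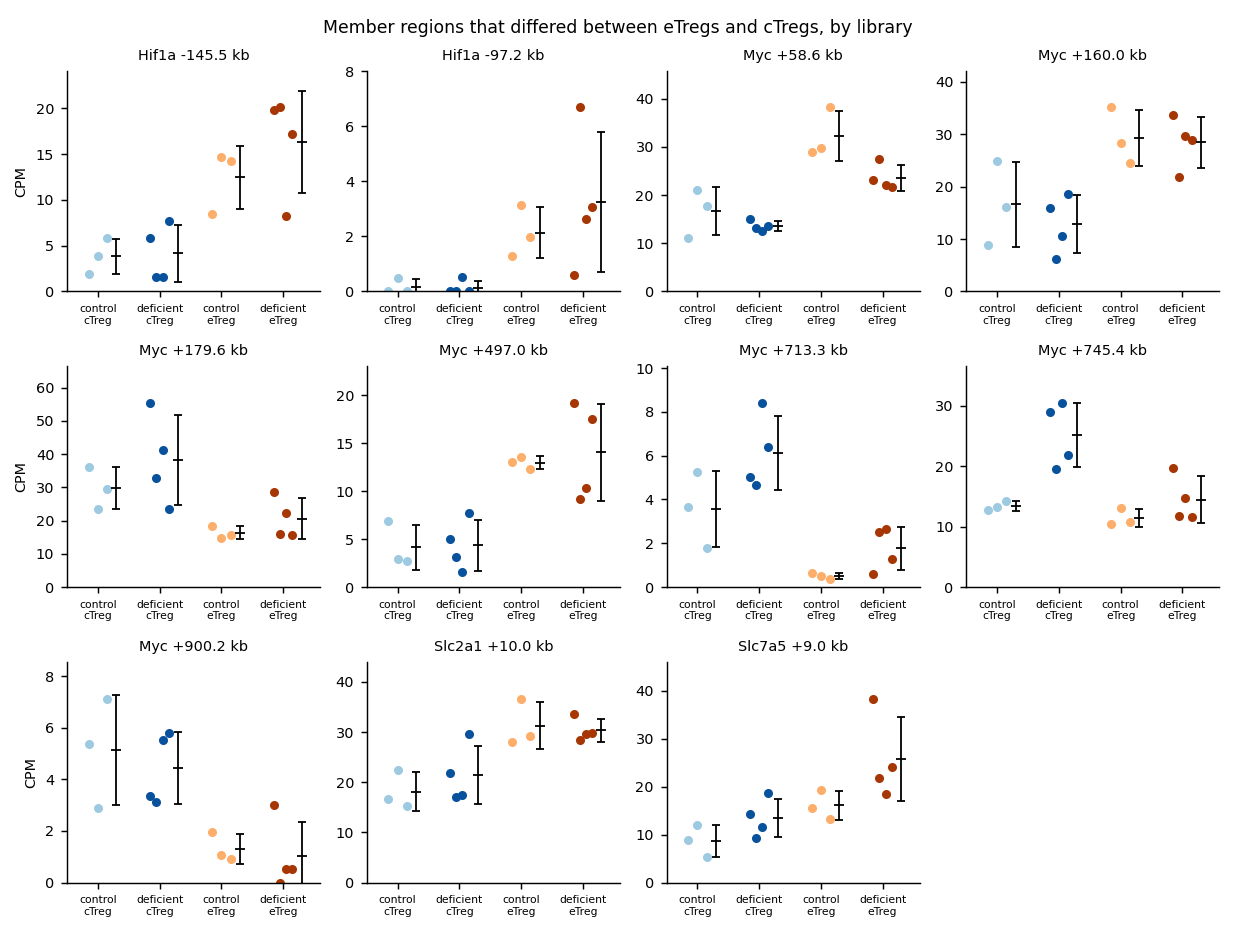
CPM (y axis, from 0) in each library (points) of the 11 member regions past the adjusted threshold between states in controls or in Atg14-deficient cells, by group (x axis), with the group mean and SD (black, not drawn below 0). Panel titles give the distance of the region from the nearest annotated start of the gene. The 7 regions higher in eTregs and the 4 lower in eTregs have the same direction in both genotypes.

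At Myc, 3 of 59 tested regions passed in controls and 7 in Atg14-deficient cells. The region 58.6 kb downstream of the start (chr15:62043674-62044154, within Pvt1) had 11.2, 21.1 and 17.8 CPM in control cTregs and 29.0, 29.7 and 38.2 in control eTregs, and 15.1, 13.2, 12.6 and 13.5 in Atg14-deficient cTregs and 23.1, 27.6, 22.0 and 21.6 in Atg14-deficient eTregs. Neither pair of groups overlapped. The log2 fold change was 0.96 ± 0.24 (SE; adjusted p = 0.0166) in controls and 0.79 ± 0.22 (adjusted p = 0.0204) in Atg14-deficient cells. It stayed positive but missed the threshold without control cTreg replicate 1 or control eTreg replicate 3 (adjusted p = 0.143 and 0.0862), and without Atg14-deficient cTreg replicate 3 (adjusted p = 0.0696).

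A second region within Pvt1, 160.0 kb downstream (chr15:62145042-62145578), had 16.0, 6.23, 10.5 and 18.6 CPM in Atg14-deficient cTregs and 33.6, 21.8, 29.6 and 28.8 in Atg14-deficient eTregs. It rose by 1.15 ± 0.29 on the log2 scale (adjusted p = 0.0118, or 0.0558 without Atg14-deficient cTreg replicate 3), without overlap. In controls the cTreg libraries had 8.8, 24.9 and 16.1 CPM and the eTreg libraries 35.1, 28.3 and 24.5, a difference of 0.81 ± 0.32 that did not pass (adjusted p = 0.143). With the replicate number as a block this control difference passed (0.88 ± 0.25, adjusted p = 0.016 by edgeR). Among the Myc regions that passed without the block, the one with the largest rise was outside Pvt1, 497.0 kb downstream (chr15:62481912-62482823). There the cTreg libraries of both genotypes had between 1.58 and 7.71 CPM and the eTreg libraries between 9.2 and 19.2. Its log2 fold change was 1.60 ± 0.43 in controls (adjusted p = 0.0283) and 1.71 ± 0.39 in Atg14-deficient cells (adjusted p = 0.00547). The control call was lost without control cTreg replicate 2 or 3 or any of the control eTreg libraries (adjusted p from 0.0525 to 0.108), and the Atg14-deficient call was kept without each library in turn.

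Of the 4 Myc regions that passed with lower accessibility in eTregs without the replicate block, 3 lay at the far 3′ side of the locus and 1 within Pvt1. The region 713.3 kb downstream (chr15:62698530-62698844), whose sequence is shown above, had 3.67, 5.27 and 1.78 CPM in control cTregs against 0.651, 0.525 and 0.36 in control eTregs. In Atg14-deficient cells the cTreg libraries had 5.04, 4.67, 8.41 and 6.42 and the eTreg libraries 0.599, 2.51, 2.65 and 1.28. Neither pair overlapped, and the region fell by 2.82 ± 0.70 on the log2 scale in controls (adjusted p = 0.0157) and by 1.82 ± 0.52 in Atg14-deficient cells (adjusted p = 0.0233). With a mean of 10.4 counts per library it is a weak region. It had enough counts to be tested only through cTreg libraries, so its state difference is not independent of the filter on low counts. The control call was lost without control cTreg replicate 1 or 2 or control eTreg replicate 2 or 3 (adjusted p from 0.0513 to 0.069), and the Atg14-deficient call without Atg14-deficient cTreg replicate 3 or Atg14-deficient eTreg replicate 1 or 4 (from 0.0714 to 0.108). With counts thinned to the smallest library total, neither passed (adjusted p = 0.0963 and 0.0504).

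Without the replicate block, the other 3 regions with lower accessibility in eTregs passed in Atg14-deficient cells and not in controls. The difference between these effects did not pass for any of them. The region 745.4 kb downstream (chr15:62730495-62730930) had 25.2 ± 5.37 CPM in Atg14-deficient cTregs and 14.5 ± 3.84 in Atg14-deficient eTregs (SD, n = 4 each), a log2 fold change of -0.80 ± 0.23 (SE; adjusted p = 0.026). The others were named after their values were seen. They lay 179.6 kb downstream within Pvt1 (chr15:62164718-62165152; 38.2 ± 13.6 and 20.6 ± 6.08 CPM, log2 fold change -0.88 ± 0.23, adjusted p = 0.016) and 900.2 kb downstream (chr15:62885328-62885662; 4.44 ± 1.4 and 1.01 ± 1.35 CPM, -2.08 ± 0.64, adjusted p = 0.0366). In controls the log2 fold changes of the 3 regions were -0.22, -0.87 and -1.97. With the replicate number as a block, that at 179.6 kb also passed in controls (-0.85 ± 0.20, adjusted p = 0.00275 by edgeR). Each of the 3 calls in Atg14-deficient cells was lost without Atg14-deficient cTreg replicate 1 or 3 or Atg14-deficient eTreg replicate 4. That at 745.4 kb was also lost without Atg14-deficient eTreg replicate 2 or 3, and that at 900.2 kb also without Atg14-deficient cTreg replicate 4 or Atg14-deficient eTreg replicate 2 or 3, and the adjusted p lay between 0.0501 and 0.111 over these fits. The calls at 745.4 and 900.2 kb were also lost with thinned counts (adjusted p = 0.0522 and 0.0601).

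**Figure D3:**
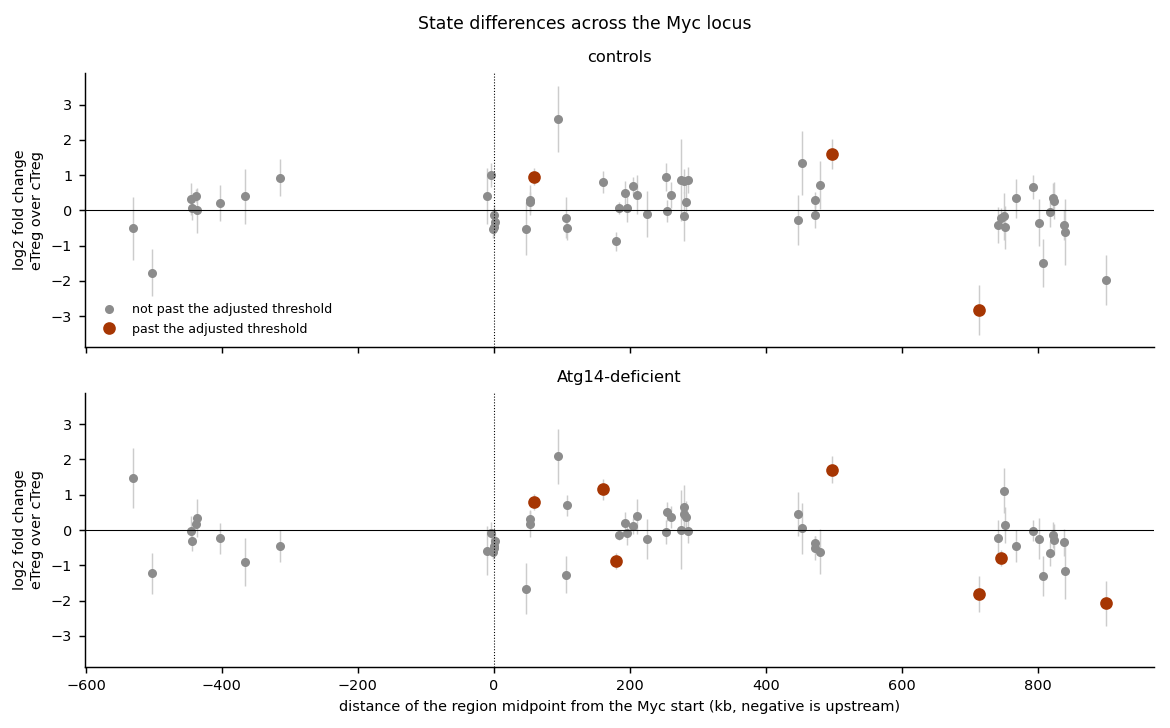
Log2 fold change of eTregs over cTregs (y axis, bars are SE) of the 59 tested Myc regions against their distance from the Myc start in kb (x axis), in controls (top) and Atg14-deficient cells (bottom). Regions past the adjusted threshold are in brown. The regions at 58.6 and 497.0 kb lie above 0 and that at 713.3 kb lies below 0 in both panels.

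At Hif1a, 1 of 22 regions passed in controls and 2 in Atg14-deficient cells. The region 145.5 kb upstream (chr12:73755580-73756084), within an intron of Prkch, had 1.96, 3.83 and 5.8 CPM in control cTregs and 8.46, 14.7 and 14.2 in control eTregs. The Atg14-deficient cTreg libraries had 5.88, 1.56, 1.58 and 7.71 CPM and the Atg14-deficient eTreg libraries 19.8, 20.1, 8.21 and 17.2. It was more accessible in every eTreg library than in any cTreg library, with log2 fold changes of 1.77 ± 0.49 (SE; adjusted p = 0.0317) in controls and 1.97 ± 0.42 (adjusted p = 0.00424) in Atg14-deficient cells. The control call was lost without control cTreg replicate 1 or 2 or control eTreg replicate 2 or 3 (adjusted p from 0.062 to 0.183), and the Atg14-deficient call was kept without each library in turn.

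The other region, 97.2 kb upstream (chr12:73804021-73804304, within the lncRNA gene Gm8075), was close to absent in cTregs. It had 2 reads over the 3 control cTreg libraries and 27 over the 3 control eTreg libraries, and 2 over the 4 Atg14-deficient cTreg libraries and 40 over the 4 Atg14-deficient eTreg libraries. Relative to the group totals, the ratio was 11.4 in controls (95% exact conditional interval 2.87 to 99.1) and 17.7 in Atg14-deficient cells (4.59 to 151), intervals that cover counting error only. By edgeR the adjusted p was 0.106 in controls and 0.0176 in Atg14-deficient cells, or 0.0568 without Atg14-deficient eTreg replicate 2. The region had enough counts to be tested only through eTreg libraries, so its state difference is not independent of the filter on low counts. The most accessible Hif1a region outside promoters (chr12:73841929-73842843, 58.9 kb upstream) had 54.9 ± 6.42 CPM in control cTregs and 39.6 ± 4.24 in control eTregs (SD, n = 3 each), which did not pass (adjusted p = 0.0932).

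Among the transporters, 1 region passed at Slc2a1 and 1 at Slc7a5, both in introns. The Slc2a1 region (chr4:119125628-119126299), whose sequence is shown above, had 16.6, 22.5 and 15.2 CPM in control cTregs and 28.0, 36.7 and 29.2 in control eTregs, a rise of 0.77 ± 0.23 on the log2 scale (adjusted p = 0.0441). In Atg14-deficient cells the cTreg libraries had 21.8, 17.1, 17.4 and 29.6 and the eTreg libraries 33.6, 28.4, 29.6 and 29.8, a difference of 0.50 ± 0.20 (adjusted p = 0.106) that passed with the replicate number as a block (0.51 ± 0.18, adjusted p = 0.0378). The control groups did not overlap and the Atg14-deficient groups did, by 1 cTreg library. The control call was lost in a fit of only the control libraries (adjusted p = 0.0515), with thinned counts (0.165) and without any single control library other than control cTreg replicate 2 (from 0.0694 to 0.182).

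The Slc7a5 region (chr8:121898464-121898868, 9.0 kb into the gene) had 14.3, 9.34, 11.6 and 18.6 CPM in Atg14-deficient cTregs and 38.4, 21.8, 18.5 and 24.1 in Atg14-deficient eTregs, a rise of 0.93 ± 0.27 on the log2 scale (adjusted p = 0.0258), with 1 cTreg library just above the lowest eTreg library. In controls the values were 8.8, 12.0 and 5.35 in cTregs and 15.6, 19.4 and 13.3 in eTregs, without overlap, and their difference of 0.84 ± 0.32 did not pass (adjusted p = 0.13). With the replicate number as a block this control difference passed (0.90 ± 0.27, adjusted p = 0.0224 by edgeR). The Atg14-deficient call was lost without Atg14-deficient cTreg replicate 1, 2 or 3 or Atg14-deficient eTreg replicate 1 (adjusted p from 0.051 to 0.145). No region of Slc2a3, Slc3a2, Slc1a5 or Tfrc passed between states in either genotype by edgeR, nor by DESeq2, without the block, while 5 of their 23 tested regions in controls and 6 in Atg14-deficient cells had an unadjusted p below 0.05. With the replicate number as a block, 2 intronic Slc2a3 regions passed in Atg14-deficient cells, at chr6:122758724-122759121 (0.75 ± 0.17, adjusted p = 0.0018, against 0.152 without the block) and at chr6:122786307-122786657 (-0.86 ± 0.29, adjusted p = 0.0312, against 0.0768). In Atg14-deficient cells the block also added the Myc regions 94.2 kb downstream (2.47 ± 0.73) and 1.9 kb upstream (-0.59 ± 0.20) and the Hif1a region 20.7 kb upstream (1.03 ± 0.35). In controls it added the Slc2a3 region chr6:122758724-122759121 (0.59 ± 0.19, adjusted p = 0.0357 by edgeR). It also added there a Slc2a3 promoter region (chr6:122743354-122743606; -1.32 ± 0.43, adjusted p = 0.0362).

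The second comparison asks what Atg14 deficiency changed at these loci. No member region passed the adjusted threshold between genotypes in eTregs or in cTregs, or in the difference between the 2 effects, by edgeR's quasi-likelihood test or by DESeq2's Wald test (0 of 117 in each). Over all tested regions 0.0228% passed in eTregs, 0.0163% in cTregs and 0.0% in the difference. At an unadjusted p below 0.05, 9 member regions were found in eTregs, 5 in cTregs and 4 in the difference. A fold limit of 0.5 (log2) was added for an unadjusted threshold, which 7 of 117 passed in eTregs (5.98%, against 6.36% of all), and likewise 5 in cTregs (4.27%, against 3.34%) and 4 in the difference (3.42%, against 3.05%). All Atg14-deficient libraries lay on one side of all controls in 10 member regions in eTregs (8.55%, against 8.48% of all) and in 8 in cTregs (6.84%, against 5.5%). The unadjusted count in cTregs was 8 without control cTreg replicate 1 or 2 or Atg14-deficient cTreg replicate 3, and that in the difference was 7 without control cTreg replicate 2 or 3. The shares were thus close to those of the rest of the table, and the regions below are given as values that did not pass correction.

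In eTregs 4 regions were past the unadjusted threshold with a higher value (4.59% of all tested regions) and 3 with a lower value (1.77%) in Atg14-deficient cells, a split of 4 and 4 under the other scalings. At Slc2a3 a region 0.7 kb upstream of a start (chr6:122743354-122743606) had 1.95, 4.2 and 3.24 CPM in control eTregs and 5.39, 11.7, 5.29 and 8.48 in Atg14-deficient eTregs (log2 fold change 1.25 ± 0.43, SE; adjusted p = 0.457 by edgeR). The Myc region 3.7 kb upstream of the start (chr15:61981455-61981795) had 25.4, 22.0 and 15.9 CPM in control eTregs and 10.8, 15.5, 5.56 and 15.4 in Atg14-deficient eTregs (-0.84 ± 0.30; adjusted p = 0.49). In both the groups did not overlap. The latter region was also past the unadjusted threshold in the difference between the genotype effects of the 2 states (-1.09 ± 0.45; adjusted p = 1.0), a comparison that uses the same eTreg libraries.

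The Myc region 204.5 kb downstream (chr15:62189560-62190111), within Pvt1, had 37.4, 41.5 and 40.0 CPM in control eTregs and 31.8, 25.1, 24.6 and 25.7 in Atg14-deficient eTregs (-0.56 ± 0.23; adjusted p = 0.554 by edgeR), without overlap. The unadjusted p rose to 0.0583 or 0.0551 for the region at 3.7 kb without control eTreg replicate 1 or Atg14-deficient eTreg replicate 3, and to 0.0545 or 0.0517 for that at 204.5 kb without control eTreg replicate 2 or Atg14-deficient eTreg replicate 3. In the other 4 the groups overlapped, and they were named after their values were seen. They were the Myc regions at 713.3 kb (1.75 ± 0.72) and 280.4 kb (-0.84 ± 0.32), the Slc7a5 region at 9.0 kb (0.68 ± 0.28) and an intronic Slc3a2 region at 1.8 kb (chr19:8711949-8712273; 0.68 ± 0.29).

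In cTregs 4 regions were past the unadjusted threshold with a higher value (1.99% of all tested regions) and 1 with a lower value (1.35%). In the 4 all Atg14-deficient libraries lay above all controls. The Myc region 745.4 kb downstream had 12.7, 13.2 and 14.3 CPM in control cTregs and 29.0, 19.5, 30.5 and 21.8 in Atg14-deficient cTregs (log2 fold change 0.92 ± 0.25, SE; adjusted p = 1.0 by edgeR). This was the same region that fell between states in Atg14-deficient cells, and both comparisons use the Atg14-deficient cTreg libraries. The Myc regions at 253.4 kb (chr15:62238598-62238946, within Pvt1) and 793.8 kb (chr15:62778916-62779317) had log2 fold changes of 0.98 ± 0.38 and 0.83 ± 0.33 (adjusted p = 1.0 for both by edgeR). An intergenic Slc2a1 region 26.4 kb downstream of a start (chr4:119142243-119142542) had 1.96, 1.91 and 0.892 CPM in control cTregs and 10.1, 4.67, 2.1 and 4.18 in Atg14-deficient cTregs (1.61 ± 0.65; adjusted p = 1.0). The last 3 lost their unadjusted p below 0.05 without control cTreg replicate 3 (0.0542, 0.072 and 0.06), those at 253.4 kb and at Slc2a1 also without Atg14-deficient cTreg replicate 1 (0.0523 and 0.128), and that at 793.8 kb also without Atg14-deficient cTreg replicate 4 (0.0835). The fifth, named after its value was seen, was a Hif1a region 24.7 kb upstream (chr12:73876422-73876923) with 11.7 ± 3.65 CPM in control cTregs (SD, n = 3) and 5.87 ± 2.23 in Atg14-deficient cTregs (SD, n = 4), which overlapped by 1 library.

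**Figure D4:**
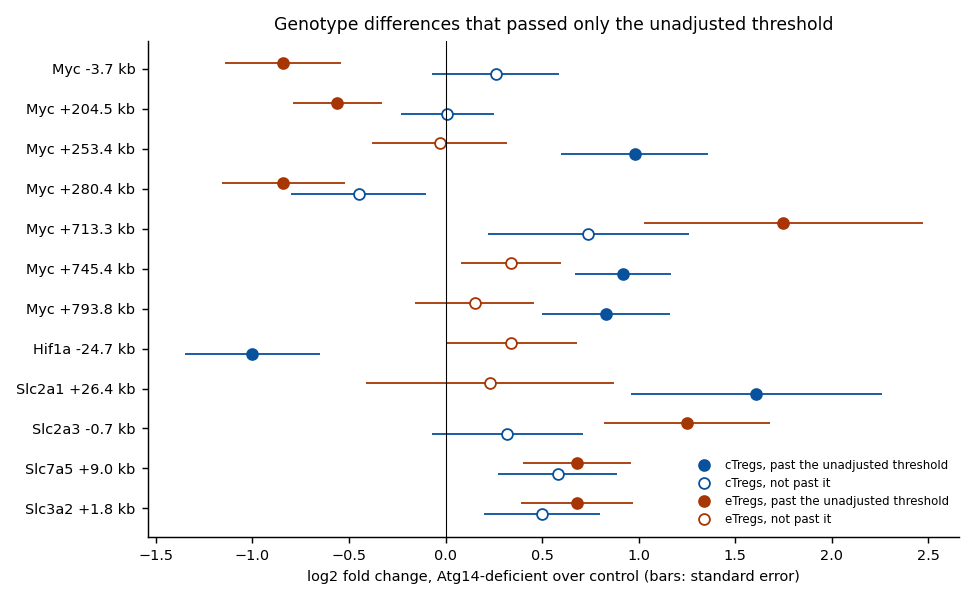
Log2 fold change of Atg14-deficient over control (x axis, bars are SE) in cTregs (blue) and eTregs (brown) for the 12 member regions past the unadjusted threshold in either state (y axis, by gene and distance from the start). Filled points are past the unadjusted threshold, and none passed the adjusted one. In 8 of the 12 the direction is the same in both states.

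Summed over all regions of a locus, 1 of the 8 loci had genotypes that did not overlap in eTregs and 1 in cTregs, against 12.3% and 5.84% of the 7959 loci with at least 3 regions, taken by nearest coding start. A count of this size is no result about the 8 loci, and the values are given as a description. The 6 Slc3a2 regions summed to 88.7 ± 8.49 CPM in control eTregs (78.9 to 94.2, SD, n = 3) and to 118 ± 11.9 in Atg14-deficient eTregs (101 to 129, SD, n = 4). In cTregs the sums were 88.1 ± 10.8 (78.9 to 100, n = 3) and 96.6 ± 8.73 (89.7 to 109, n = 4), which overlapped. All 6 Slc3a2 regions had a positive log2 fold change between genotypes in eTregs, with a median of 0.38 (from 0.18 to 1.06) against 0.06 over all tested regions, and all 6 were positive under TMM factors, DESeq2 size factors and loess offsets. In cTregs 5 of the 6 were positive, with a median of 0.30 against 0.03. The eTreg signs come from the regions that make up the sum and add no separate support. None of the 6 passed the adjusted threshold (smallest adjusted p = 0.568), and no test was made of the sum. The Treg marker sums given above were also higher in Atg14-deficient eTregs, without overlap. Of the cTreg markers given above, Ccr7 was higher there without overlap (15.9 to 25.9 against 8.78 to 13.6 CPM). It did not pass (log2 fold change 0.78, adjusted p = 0.475 by edgeR). Tcf7 and Lef1 overlapped between genotypes in eTregs, with log2 fold changes of -0.02 and 0.20.

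Between states 5 of the 8 loci had sums that did not overlap in controls (32.1% of all loci) and 0 in Atg14-deficient cells (22.7%). The Slc7a5 regions summed to 97.2 ± 7.61 CPM in control cTregs and 127 ± 10.6 in control eTregs (SD, n = 3 each), and to 109 ± 11.2 and 125 ± 17.9 in Atg14-deficient cells (SD, n = 4 each). Control groups did not overlap (89.6 to 105 and 116 to 137). The Slc2a3 sums were 502 ± 25.7 and 439 ± 25.1 CPM in control cTregs and eTregs, and 468 ± 13.2 and 458 ± 9.76 in Atg14-deficient cells, without overlap between the control states (483 to 531 and 415 to 465) and, in cTregs, none between genotypes (453 to 483 in Atg14-deficient cells). The 68 Myc regions summed to 570 ± 28.6 CPM in control cTregs, 642 ± 19.0 in control eTregs, 635 ± 55.7 in Atg14-deficient cTregs and 601 ± 33.5 in Atg14-deficient eTregs, so that the state difference of the sum was positive in controls, without overlap (550 to 602 and 628 to 664), and negative in Atg14-deficient cells, where the groups overlapped (571 to 700 and 557 to 629). The control states did not overlap either at Hif1a (277 to 287 CPM in cTregs and 205 to 276 in eTregs) or at Slc2a1 (250 to 273 and 283 to 301). The Slc1a5 sums were between 38.5 and 53.5 and the Tfrc sums between 49.8 and 74.8 in all libraries.

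**Figure D5:**
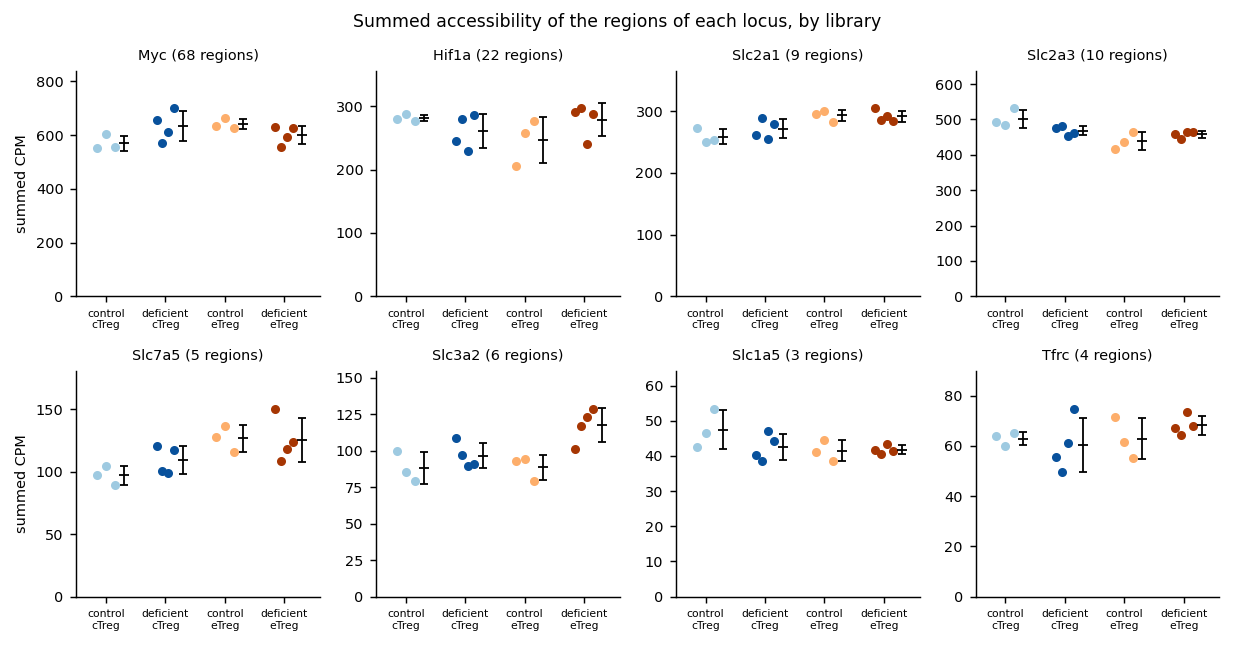
CPM summed over the regions of each locus (y axis, from 0) in each library (points), by group (x axis), with the group mean and SD (black). The Atg14-deficient eTreg libraries lie above the control eTreg libraries at Slc3a2 (101 to 129 against 78.9 to 94.2 CPM) and the groups overlap at the other loci in that comparison.

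Regions of other genes of the same pathways were counted in the same way, against 5.3% of all tested regions in controls and 9.81% in Atg14-deficient cells. Of 23 tested regions of glucose and monocarboxylate transporters, 2 passed in controls (both lower in eTregs) and 3 in Atg14-deficient cells (1 higher, 2 lower). All were at Slc16a1, which encodes the lactate transporter MCT1, and the region chr3:104616075-104616584 had 35.3 ± 5.19 CPM in Atg14-deficient cTregs and 18.5 ± 5.68 in Atg14-deficient eTregs (SD, n = 4 each; log2 fold change -0.95 ± 0.21, SE; adjusted p = 0.0045). Of 72 regions of amino acid transporters, 6 passed in controls (1 higher, 5 lower) and 5 in Atg14-deficient cells (2 higher, 3 lower, or 4 and 5 with the replicate block), among them a region of the cationic amino acid transporter Slc7a1 (chr5:148388149-148388576; -2.37 ± 0.52 in Atg14-deficient cells, adjusted p = 0.00453). Of 24 regions for iron uptake and handling, 0 passed in controls by edgeR (1 past the unadjusted threshold; 0 by the DESeq2 Wald test) and 1 in Atg14-deficient cells, the promoter of the ferrous iron transporter Slc11a2 (chr15:100422877-100423315), with 17.6 ± 8.46 CPM in cTregs and 34.8 ± 4.99 in eTregs (0.97 ± 0.23, adjusted p = 0.00805).

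Of 74 regions of the Myc network, 3 passed in controls (all lower in eTregs) and 6 in Atg14-deficient cells (2 higher, 4 lower, or 6 and 4 with the replicate block, 1 and 4 under TMM factors and 1 and 3 under loess offsets). A region of Fbxw7, whose product targets Myc for degradation (chr3:85126845-85127454), had 78.7 ± 8.63 CPM in Atg14-deficient cTregs and 48.3 ± 5.84 in Atg14-deficient eTregs (SD, n = 4 each; -0.70 ± 0.13, SE; adjusted p = 0.000991). Of 44 regions of the hypoxia pathway, 3 passed in controls (2 higher, 1 lower) and 6 in Atg14-deficient cells (3 higher, 3 lower, or 5 and 3 with the replicate block). Those that passed without the block were all at Epas1, which encodes the HIF-2 alpha subunit, or at Egln3, a prolyl hydroxylase that marks HIF for degradation. The Epas1 region chr17:86801646-86802234 fell by 1.67 ± 0.35 on the log2 scale in controls (adjusted p = 0.00437) and by 1.13 ± 0.29 in Atg14-deficient cells (adjusted p = 0.0136). The regions named here in Atg14-deficient cells, and the Epas1 region in controls, kept their calls without each library in turn, and these examples were chosen after their values were seen. Other calls counted in these lists were less stable. The Mga call in Atg14-deficient cells was lost in 7 of the fits with a library left out. The control call at Fbxw7 region chr3:84770501-84770945 was lost in 6.

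Between genotypes 1 region of these lists passed the adjusted threshold, an amino acid transporter region at Slc38a1, which imports glutamine (chr15:96566839-96567284), with 1.48 ± 0.452 CPM in control eTregs (SD, n = 3) and 6.76 ± 1.24 in Atg14-deficient eTregs (SD, n = 4; log2 fold change 2.20 ± 0.41, SE; adjusted p = 0.047). The call was lost under TMM factors, DESeq2 size factors and loess offsets (adjusted p from 0.0515 to 0.0535), with the replicate block (0.0877) and in a fit of only the eTreg libraries (0.157). It was also lost without any single eTreg library other than Atg14-deficient eTreg replicate 2 (from 0.101 to 0.269). The DESeq2 Wald test kept it (2.19, adjusted p = 0.00797). The log2 fold change stayed between 2.02 and 2.39 over the fits with a library left out. In cTregs the region had 5.33 ± 0.54 CPM in controls (SD, n = 3) and 8.97 ± 0.445 in Atg14-deficient cells (SD, n = 4), a log2 fold change of 0.74 ± 0.353. The difference between its genotype effects in the 2 states was 1.45 ± 0.54 and did not pass. Between genotypes in eTregs an Epas1 region of the hypoxia pathway, named after its values were seen (chr17:86709765-86710262), had 71.2 ± 13.5 CPM in control eTregs (SD, n = 3) and 39.2 ± 7.39 in Atg14-deficient eTregs (SD, n = 4). It missed the threshold with library totals (-0.85 ± 0.162, adjusted p = 0.0537) and with loess offsets (0.0521). It passed under TMM factors (0.0253), DESeq2 size factors (0.0317), the DESeq2 Wald test (0.00162) and the replicate block (0.0284). The difference between its genotype effects in the 2 states was -1.11 ± 0.232 (adjusted p = 1.0) and passed only with the block (0.00402) of these settings. The median log2 fold change of the amino acid transporter regions between genotypes was 0.17 in eTregs and 0.03 in cTregs, against 0.06 and 0.03 over all tested regions. In eTregs it was 0.12 to 0.13 under TMM factors, DESeq2 size factors and loess offsets. The other lists had eTreg medians of 0.17 (iron), 0.13 (glucose and monocarboxylate), 0.11 (Myc network) and 0.03 (hypoxia).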

How the data were processed

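The deposited file holds raw counts per region. To make it, the authors trimmed and aligned reads, removed duplicates, applied the transposase offset, kept nucleosome-free fragments and called MACS2 peaks in each library, then merged those present in 50% or more of a genotype's replicates. The methods name mm9, Trimmomatic and BWA, and the submitters' processing notes name mm10, GRCm38, cutadapt 1.9, Picard 1.65 and MACS2 2.1.0.20150603. The coordinates fit GRCm38: all 67207 chromosomal regions lie inside its chromosome ends, and 26850 of 56164 coding starts have a region within 200 bp (2220 once starts are moved by 20000 bp). Positions are counted from 1.

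Here edgeR 4.0.16 (R 4.3.3) was run on all 14 libraries with library totals, its filter on low counts (61366 regions kept), 1 coefficient per group, robust quasi-likelihood fits and Benjamini-Hochberg adjustment. The 10 untested members had mean counts of at most 7.0. The study sorted both states from 3 control and 4 Atg14-deficient chimeras, but the sources used here do not say which libraries share a mouse, so p-values measure the spread between libraries, and no pair of replicates was alike within sampling noise. Same-numbered cTreg and eTreg libraries deviated together in Atg14-deficient cells (correlations of 0.119 to 0.243 for the 4 numbers), a pairing seen in the data and not stated in the labels. The main fit has no block. The value with the replicate number as a block is given for the member regions whose call between states it changes. For the gene lists it is given in Atg14-deficient cells.

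The members and gene lists were chosen with earlier results of these data known. Named by rule are each gene's promoter region and its other region of highest mean count, regions past the adjusted threshold (at most 4 per locus), and regions past the unadjusted threshold between genotypes whose groups do not overlap. The alternatives were TMM factors, DESeq2 1.42.0 size factors and Wald test, loess offsets, no filter, at least 10 counts in every library, thinned counts, fits of only the groups compared, membership by nearest start or within 50 kb, a replicate block, and each library left out. Exact permutation of 3 against 4 libraries cannot go below p = 0.0571 (two-sided) and was not used. The sum over the cTreg marker promoters is not reported here.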

Additional observations from a re-analysis of the deposited data

Results flagged for a closer look

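In groups of 4 libraries, a library was marked when its gap to the nearest other exceeded Dixon's critical share of the group's range. Of the 62 group and region pairs examined, chance would mark about 1 in 20. At the Myc region 184.3 kb downstream (chr15:62169175-62170111), Atg14-deficient cTreg replicate 2 had 52.2 CPM against 82.6 to 87.4 in the others. At the Myc region 204.5 kb downstream, Atg14-deficient eTreg replicate 1 had 31.8 CPM against 24.6 to 25.7. At the Hif1a region 58.9 kb upstream, Atg14-deficient eTreg replicate 3 had 34.9 CPM against 48.9 to 50.3. At the Hif1a region 97.2 kb upstream, Atg14-deficient cTreg replicate 3 had 0.526 CPM and the others had 0. At the Slc1a5 promoter, Atg14-deficient cTreg replicate 3 had 31.3 CPM against 26.3 to 26.9, and Atg14-deficient eTreg replicate 3 had 23.6 CPM against 29.3 to 30.0.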

How the results depend on the processing

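Of the values computed for the named regions, the 58 past their threshold kept their sign under the alternatives in which they could be fitted. Of the 64 that did not pass, 24 changed sign in at least 1 alternative, with log2 fold changes between -0.13 and 0.16 as reported. The number of regions past the threshold moved. With at least 10 counts in every library, which leaves 58 member regions, 2 passed in controls and 5 in Atg14-deficient cells between states, and 3 passed the unadjusted threshold between genotypes in cTregs. With counts thinned to the smallest library total, 6 passed between states in Atg14-deficient cells and 8 passed the unadjusted threshold in the difference between the genotype effects. Within 50 kb of a start, 1 and 1 region passed between states in controls and in Atg14-deficient cells, and 4, 2 and 2 passed the unadjusted threshold between genotypes in eTregs, in cTregs and in the difference.

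With the replicate block, which is not part of the values reported as the main ones, 15 regions passed between states in controls (6367 of all tested regions) and 16 in Atg14-deficient cells, and none between genotypes. The 5 and 10 regions called without the block were all among them. In controls the block added Myc regions 503.2 kb (-2.18) and 3.7 kb upstream (1.02). It also added those 94.2 (2.88), 160.0 (0.88), 179.6 (-0.85) and 204.5 kb downstream (0.72). The rest were a Hif1a region 0.7 kb downstream (-0.90), the Slc2a3 regions given above and the Slc7a5 region. Same-numbered control libraries had correlations of 0.0543, 0.209 and 0.19. The first lies below the range in Atg14-deficient cells (0.119 to 0.243) and the others within it. Pairing in controls was thus not settled. Correlations between libraries of different genotypes were -0.217 to 0.0914. With the block the Slc38a1 region missed the threshold between genotypes (adjusted p = 0.0877), and the Epas1 region passed it in eTregs (0.0284) and in the difference between states (0.00402). The block changed no adjusted call of a member region between genotypes.

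Over the fits that leave out 1 library, the regions past the adjusted threshold between states ranged from 1 (without control cTreg replicate 1 or control eTreg replicate 2) to 8 (without control cTreg replicate 2) in controls, and from 3 (without Atg14-deficient cTreg replicate 3) to 13 in Atg14-deficient cells. Those past the unadjusted threshold ranged from 5 to 10 in eTregs, from 4 to 8 in cTregs and from 3 to 7 in the difference. No member region passed the adjusted threshold between genotypes in any alternative run with edgeR or DESeq2. The split of unadjusted calls in eTregs, 4 higher and 3 lower, was 4 and 4 under TMM factors, DESeq2 size factors and loess offsets. Depth is a limit here, since the median member region had a mean of 21.5 counts per library, and several of the regions called have fewer.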
